A study of Mus musculus with 16 samples.

Results

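Resident Kupffer cell markers were followed in the livers of mice with 4 genotypes of Cers2, the gene of ceramide synthase 2. The set held 9 genes, Clec4f, Vsig4, Marco, Timd4, Folr2, Cd5l, Adgre1, Mpeg1 and Csf1r, out of 31481 genes tested. They were found by their symbols among the transcript identifiers of the deposited log2 value table, and the probe with the highest mean over the 16 arrays stood for each gene. All 9 had a probe, and all 9 passed the filter on dim probes. The mice were labelled CerS2 H/A, Del, Flox and WT, with 4 liver samples of 6-week-old males in each group, and all had the same mixed background, 75% C57BL/6 and 25% SV129. The Del samples carry the condition name delHox and the Flox samples delneo, and the labels do not spell out what each allele changes or whether any Cre was used. The title of the series places the catalytic activity of the enzyme at the centre of the study, so H/A and Del livers were each compared with WT, with the Flox group as the second reference. The labels do not say that the 4 samples of a group came from 4 animals, so p-values measure the spread between these samples, called livers here, which may in part be technical. Each sample was total RNA of 25 mg of whole liver, so an amount of RNA reflects both how many cells of a type were present and how much RNA each held.

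Kupffer cells are the resident macrophages of the liver. They line the sinusoids, where they take up bacteria, dying cells and aged red blood cells from the blood, and the population is largely seeded before birth and renews itself locally. Signals from the surrounding endothelial, stellate and parenchymal cells (colony stimulating factor 1, transforming growth factor beta family members and Notch ligands) maintain their identity, together with transcription factors such as PU.1, MAF proteins and the liver X receptor. Some of the markers followed here are shared by most tissue macrophages (Adgre1, Csf1r, Mpeg1), while Clec4f is in the mouse close to restricted to Kupffer cells.

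On each array 51.6% to 65.1% of the probes were well above background, and 0 spots were saturated. For 6 of 16 samples the scanner file listed for the sample came from another slide than the one in its label. In all 16 samples the column of the value table correlated best with the file at the position in the label (r of 0.885 to 0.996), and in those 6 samples the listed file gave r of -0.3 to 0.168, so the value table was used. With the scanner files as listed, 0 of the 9 markers were called in any comparison, where at most 0.0159% of all genes were. By label, slide 1 held 3 H/A, 1 Del, 2 Flox and 2 WT arrays and slide 2 held 1 H/A, 3 Del, 2 Flox and 2 WT arrays. No probe could be paired with Cers2 itself, which is not analysed here, so the labels could not be checked on the targeted gene. The tissue label was checked on 8 hepatocyte genes, whose summed log2 level was 18.14 to 18.29 in H/A, 18.2 to 18.27 in Del, 18.13 to 18.26 in Flox and 18.16 to 18.28 in WT livers. These genes are bright in every group. All columns share 1 distribution, which holds sums of the brightest probes nearly equal, so the check cannot compare the share of hepatocytes between groups.

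Most of the markers were higher in H/A and Del livers than in WT or Flox livers. Among the 9 markers, 6 rose in H/A against WT livers (Marco, Adgre1, Mpeg1, Cd5l, Vsig4 and Clec4f) and 0 fell, while Timd4, Folr2 and Csf1r were not called. In that comparison the calls, at a Benjamini-Hochberg adjusted p under 0.05 in limma, took in 7.08% of all genes as higher and 2.97% as lower. The median log2 difference of the 9 markers was 1.21, beside -0.09 over all genes. In bulk liver, more cells of a type and more RNA per cell cannot be told apart. The same 6 markers were those in which all 4 H/A livers lay above all 4 WT livers, an arrangement found for 9.02% of all genes.

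**Figure D1:**
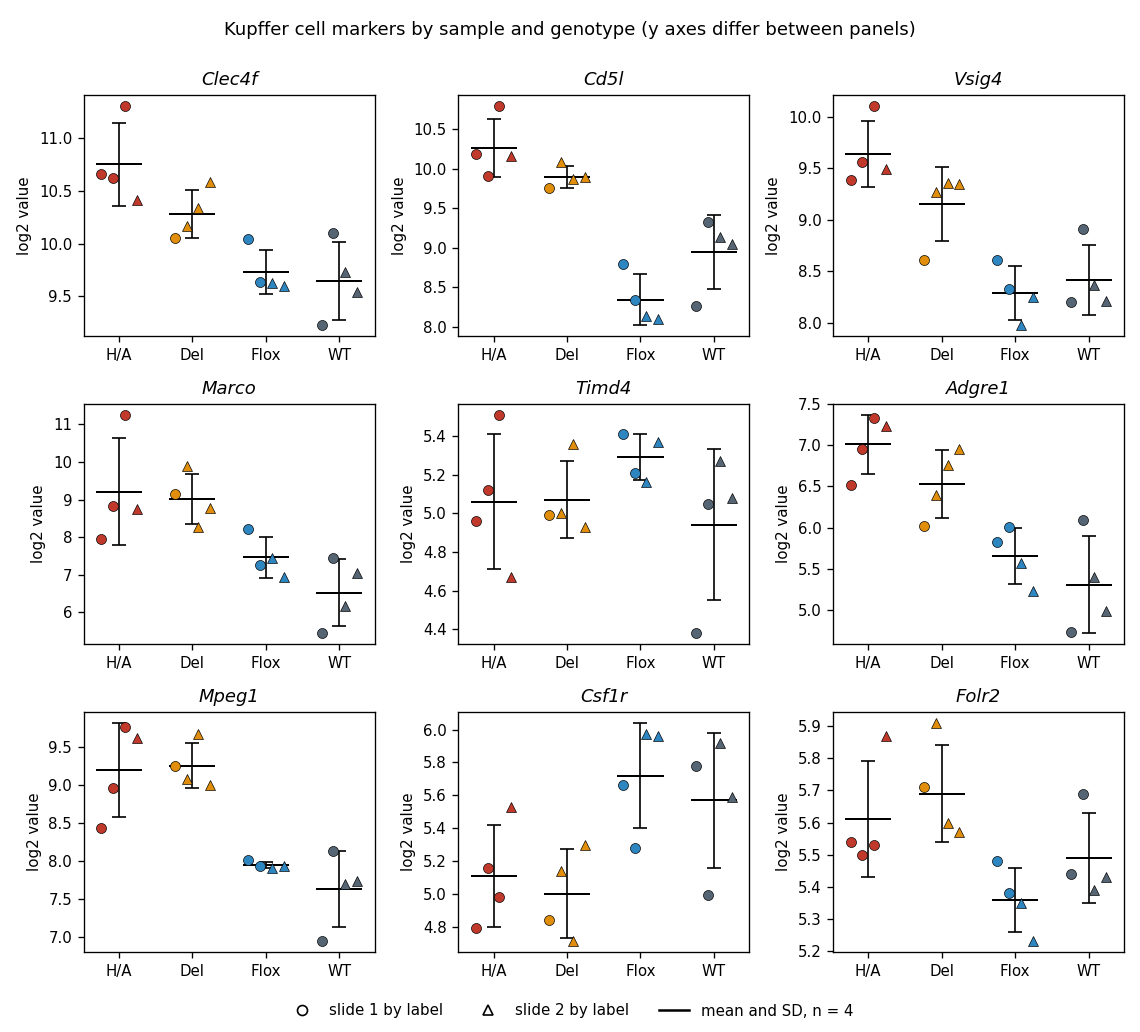
Log2 value (y axis, a scale of its own in each panel) of the 9 Kupffer cell markers in each of 4 H/A, 4 Del, 4 Flox and 4 WT livers (x axis); each symbol is 1 sample, its shape gives the slide by label, and bars give the mean and SD. For Marco, the 4 H/A livers sit between 7.96 and 11.26 and the 4 WT livers between 5.44 and 7.44, whereas the groups of Timd4 lie within 4.38 to 5.51.

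Of the receptors by which Kupffer cells capture particles, Clec4f, a C-type lectin that binds galactose-bearing glycans, was the one most restricted to these cells. Its log2 values were 10.66, 10.62, 11.3 and 10.41 in H/A livers, 10.05, 10.17, 10.34 and 10.58 in Del livers, 10.04, 9.64, 9.63 and 9.6 in Flox livers, and 9.23, 10.1, 9.73 and 9.54 in WT livers. Every H/A liver was above every Flox and WT liver, and every Del liver was above every Flox liver, but the highest WT liver reached the range of the Del livers. Clec4f rose by 1.1 on the log2 scale in H/A against WT livers, a 2.14-fold difference (95% interval 0.65 to 1.54, adjusted p = 0.00488). The Del livers averaged 10.28 ± 0.23, against 9.65 ± 0.37 in WT livers (SD, n = 4 each), and that difference of 0.63 missed the threshold (limma, adjusted p = 0.0578), as did the difference of 0.55 in Del against Flox (adjusted p = 0.0517). Both lay near the threshold: with normexp background correction they were 0.64 and 0.55 and were called, as they also were without H/A replicate 3 or without WT replicate 2. The difference from Flox was called as well when WT replicate 1 (0.55), Del replicate 1 (0.63) or Flox replicate 1 (0.66) was left out.

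Vsig4, the complement receptor with which Kupffer cells catch C3-coated bacteria from the blood, had log2 values of 9.39, 9.56, 10.1 and 9.49 in H/A livers, 8.61, 9.27, 9.36 and 9.35 in Del livers, 8.61, 8.33, 7.98 and 8.25 in Flox livers, and 8.2, 8.91, 8.37 and 8.21 in WT livers. The H/A livers were above all others, while 1 Del liver lay as low as the highest Flox liver and below the highest WT liver. Vsig4 rose 2.32-fold in H/A against WT livers (log2 difference 1.21, 95% interval 0.75 to 1.68, adjusted p = 0.00323), 1.65-fold in Del against WT livers (0.72, adjusted p = 0.0395) and 1.81-fold in Del against Flox livers (0.85, adjusted p = 0.0109). The call in Del against WT was lost without H/A replicate 2, without WT replicates 1, 3 or 4, or without Del replicates 2, 3 or 4, with differences of 0.65 to 0.72 and adjusted p of 0.0505 to 0.119 in limma. It was also lost without the filter on dim probes (adjusted p = 0.0639), without scaling between arrays (0.86, adjusted p = 0.0508) and with the 2 groups fitted alone (adjusted p = 0.0796).

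Marco, a class A scavenger receptor for bacteria and particles, showed the widest spread. Its log2 values were 7.96, 8.84, 11.26 and 8.76 in H/A livers, 9.14, 9.88, 8.28 and 8.77 in Del livers, 8.21, 7.26, 7.43 and 6.94 in Flox livers, and 5.44, 7.44, 6.16 and 7.04 in WT livers. All H/A and all Del livers were above all WT livers, all Del livers were above all Flox livers, and H/A replicate 3 stood far above the other 15 arrays. Marco rose 6.43-fold in H/A against WT livers (log2 difference 2.68, 95% interval 1.41 to 3.96, adjusted p = 0.012) and 5.65-fold in Del against WT livers (2.5, adjusted p = 0.0129), and 3.35-fold in H/A against Flox livers (1.74, adjusted p = 0.0371). With the 2 groups fitted alone the H/A-minus-WT difference missed the threshold (limma adjusted p = 0.0556). Without H/A replicate 3 the difference was 2 in H/A against WT (adjusted p = 0.0247, limma) and 1.06 in H/A against Flox, no longer called (adjusted p = 0.109). The last call was also lost without H/A replicate 2 (1.87) or without Flox replicates 2, 3 or 4 (1.68, 1.74 and 1.57), and without the filter (adjusted p = 0.0658). In Del against Flox the difference of 1.56 was not called (adjusted p = 0.0543), but it was called without H/A replicates 1 or 3 or WT replicates 1 or 2, which left the difference at 1.56.

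Timd4, the receptor for phosphatidylserine on dying cells and the marker of long-lived, embryonically seeded Kupffer cells, gave another picture. Log2 values of 4.96, 5.12, 5.51 and 4.67 were found in H/A livers, 4.99, 5, 5.36 and 4.93 in Del livers, 5.41, 5.21, 5.16 and 5.37 in Flox livers, and 4.38, 5.05, 5.27 and 5.08 in WT livers. The groups overlapped in every comparison. The H/A-minus-WT difference was 0.12 with a 95% interval of -0.3 to 0.54 (limma, adjusted p = 0.69), so a rise of the size seen for Clec4f, 1.1, lay outside the interval. Within slide 1 that difference was 0.48 and within slide 2 it was -0.51. Without scaling between arrays it was 0.58 and was called (adjusted p = 0.0357), at a setting where the median of all genes was 0.37. Timd4 had the dimmest of the chosen probes, with processed signals of 19.5 to 47.2. The array carried 3 probes for Timd4 under different transcript identifiers, and their first 30 bases are shown because they are different sequences whose values need not match.
Timd4 NM_178759.4: agtctcccagcagtagagggagttagaaat
Timd4 XM_006533479.1: tatgtgaccaccaccaccccagagctgctt
Timd4 XM_006533480.1: tgtgaaaagatacactgggggttccaagga
The second of these was well above background on 15 of 16 arrays and averaged 4.78 ± 0.41 in H/A and 4.49 ± 0.22 in WT livers (SD, n = 4 each). The third was well above background on 4 of 16 arrays.

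Folr2, the folate receptor beta of tissue-resident macrophages, varied little. Its log2 values were 5.54, 5.5, 5.53 and 5.87 in H/A livers, 5.71, 5.91, 5.6 and 5.57 in Del livers, 5.48, 5.38, 5.35 and 5.23 in Flox livers, and 5.44, 5.69, 5.39 and 5.43 in WT livers. All H/A and all Del livers were above all Flox livers, and both overlapped with the WT livers. Folr2 rose 1.26-fold in Del against Flox livers (log2 difference 0.33, 95% interval 0.07 to 0.59, adjusted p = 0.0477), and this call was lost when any 1 of 14 arrays was left out, all but H/A replicate 4 and WT replicate 2, with differences of 0.26 to 0.37. Between H/A and WT livers its difference was 0.12 (95% interval -0.14 to 0.38), but 0.59 and called without scaling between arrays (adjusted p = 0.036), where the median of all genes was 0.37. That setting also called H/A against Flox, at 0.7.

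Cd5l, a secreted protein of macrophages that binds lipids and IgM and protects against apoptosis, separated both mutant groups from both other groups. In H/A livers its log2 values were 10.18, 9.91, 10.79 and 10.16, with 9.75, 10.08, 9.87 and 9.9 in Del livers, 8.79, 8.33, 8.13 and 8.1 in Flox livers, and 8.26, 9.32, 9.14 and 9.05 in WT livers. Every H/A and every Del liver was above every Flox and every WT liver. Cd5l rose 2.49-fold in H/A against WT livers (log2 difference 1.32, 95% interval 0.82 to 1.81, adjusted p = 0.00293) and 1.94-fold in Del against WT livers (0.96, adjusted p = 0.0136). Against Flox livers it rose 2.95-fold in Del (1.56, adjusted p = 0.000446) and 3.79-fold in H/A livers (1.92, adjusted p = 0.000244). The Flox group itself averaged 8.34 ± 0.32 and the WT group 8.94 ± 0.47 (SD, n = 4 each), a Flox-minus-WT difference of -0.6. It was not called (limma adjusted p = 0.802).

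Adgre1 encodes the adhesion receptor by which mouse macrophages are usually identified. In H/A livers it had log2 values of 6.52, 6.95, 7.33 and 7.23, with 6.02, 6.39, 6.76 and 6.95 in Del livers, 5.82, 6.01, 5.57 and 5.23 in Flox livers, and 4.74, 6.09, 5.4 and 4.99 in WT livers. The H/A livers lay above all Flox and WT livers, whereas the lowest Del liver was within the range of WT. Adgre1 rose 3.25-fold in H/A against WT livers (log2 difference 1.7, 95% interval 1.09 to 2.31, adjusted p = 0.00213), 2.33-fold in Del against WT livers (1.22, adjusted p = 0.0112) and 1.83-fold in Del against Flox livers (0.87, adjusted p = 0.0308). The last call was lost without Del replicates 3 or 4 or Flox replicates 1, 3 or 4, with differences of 0.73 to 0.92 and limma adjusted p of 0.0507 to 0.0915, and also without the filter (adjusted p = 0.0519) and without scaling between arrays (0.94, adjusted p = 0.0577). A background correction with an offset of 50 gave an H/A-minus-WT difference of 0.87, still called.

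Mpeg1, the pore-forming protein perforin-2 that kills bacteria inside macrophages, had log2 values of 8.43, 8.96, 9.76 and 9.61 in H/A livers, 9.25, 9.07, 9.67 and 9 in Del livers, 8.01, 7.93, 7.91 and 7.93 in Flox livers, and 6.94, 8.13, 7.69 and 7.74 in WT livers. Every H/A and Del liver was above every Flox and WT liver, and the 4 Flox livers were nearly equal (SD 0.04). Mpeg1 rose 2.96-fold in H/A (log2 difference 1.57, adjusted p = 0.00307) and 3.08-fold in Del livers (1.62, adjusted p = 0.00145), each against WT. It rose 2.47-fold in Del (1.3, adjusted p = 0.0043) and 2.37-fold in H/A livers (1.25, adjusted p = 0.00665), each against Flox.

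Csf1r, the receptor for colony stimulating factor 1 and interleukin 34 on which macrophages depend for survival, ran the other way. The array values were 4.79, 5.16, 4.98 and 5.53 on the log2 scale in H/A livers, 4.84, 5.14, 4.71 and 5.3 in Del livers, 5.66, 5.28, 5.97 and 5.96 in Flox livers, and 5.78, 4.99, 5.92 and 5.59 in WT livers. Most H/A and Del livers were lower than most Flox and WT livers, but the groups overlapped in each comparison. Csf1r fell in Del against Flox livers (log2 difference -0.72, 95% interval -1.2 to -0.24, adjusted p = 0.0257), a call lost without Del replicates 1 or 3 or Flox replicates 1, 3 or 4 (-0.74 to -0.62, limma adjusted p of 0.05 to 0.0859). The differences of -0.46 in H/A against WT, -0.57 in Del against WT and -0.6 in H/A against Flox were not called (adjusted p = 0.169, 0.0975 and 0.05). Without WT replicate 2 all 3 were called, at -0.65, -0.77 and -0.6, and the H/A-minus-Flox difference was also called without H/A replicate 4 (-0.74), WT replicate 3 (-0.6), Del replicate 3 (-0.6) or Flox replicate 2 (-0.75). The Csf1r probe is dim, with processed signals of 25.7 to 74.6, and without scaling between arrays its H/A-minus-WT difference was 0.02 and its Del-minus-Flox difference, -0.68, was not called (adjusted p = 0.107).

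Markers rose in Del livers too, and 0 of the 9 were called between H/A and Del livers. Against WT, 5 of 9 markers rose in Del livers (Adgre1, Mpeg1, Cd5l, Vsig4 and Marco) and 0 fell, where 8.85% of all genes rose and 4.38% fell. In 3 of them (Cd5l, Marco and Mpeg1) all Del livers were above all WT livers, as for 10.6% of all genes. Against Flox, 5 rose in Del livers (Cd5l, Mpeg1, Vsig4, Adgre1 and Folr2) and Csf1r fell, where 16.6% of all genes rose and 18.2% fell, and 6 (Adgre1, Clec4f, Cd5l, Marco, Mpeg1 and Folr2) lay wholly above Flox, as for 15.9% of all genes. H/A livers against Flox livers gave 6 markers that rose (Clec4f, Cd5l, Vsig4, Marco, Adgre1 and Mpeg1) and 0 that fell, where 15.9% of all genes rose and 17.3% fell, and 6 lay wholly above Flox (these with Folr2 in place of Marco), as for 16.1%. The median log2 differences of the 9 markers were 0.72 in Del against WT, 0.85 in Del against Flox and 1.25 in H/A against Flox, beside -0.11, -0.14 and -0.14 over all genes. These comparisons share their mutant or reference arrays, so they are not independent of each other.

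Between H/A and Del livers 0 of 9 markers were called, where 0.0127% of all genes were, and 2 of them, Vsig4 and Clec4f, had an unadjusted p under 0.05 in limma. Vsig4 averaged 9.64 ± 0.32 in H/A and 9.15 ± 0.36 in Del livers (SD, n = 4 each), a difference of 0.49 with a 95% interval of 0.03 to 0.95. The interval for Marco was the widest, -1.09 to 1.46 around a difference of 0.19, so that similar levels of Marco in H/A and Del livers are not shown. Between Flox and WT livers 0 of 9 were called, where 0.0222% of all genes were, and Cd5l alone had an unadjusted p under 0.05. The H/A-minus-WT difference was also set against the Del-minus-Flox difference in 1 test for each gene. In it 0 of 9 markers were called and 0 had an unadjusted p under 0.05, where 0.00318% of all genes were called. The 2 differences of Adgre1 were furthest apart in relation to their error, by 0.83 (95% interval -0.03 to 1.69, limma adjusted p = 0.726).

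**Figure D2:**
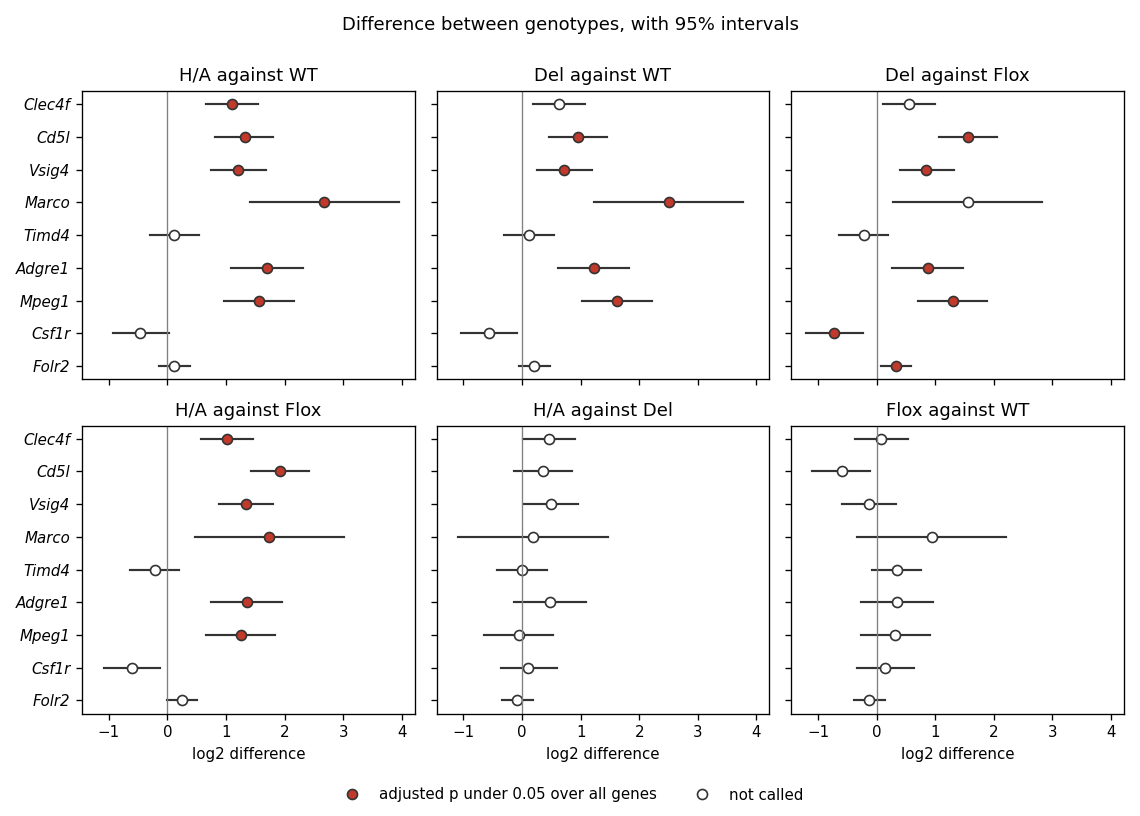
Log2 difference (x axis, first-named genotype minus second) of each of the 9 markers (y axis) in 6 comparisons; lines are unadjusted 95% intervals, and filled points have a limma adjusted p under 0.05 over all genes. In H/A against WT the 6 filled points lie between 1.1 and 2.68, and in H/A against Del and in Flox against WT no point is filled.

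The slides divided the groups unevenly, so each comparison was also made within each slide. Within slide 1, 0 of 9 markers were called in any comparison. There, with 3 H/A and 2 WT arrays, 7 of 9 markers were higher in H/A, with differences of 1.52 for Adgre1, 1.5 for Cd5l, 1.51 for Mpeg1, 1.13 for Vsig4, 1.2 for Clec4f and 2.91 for Marco, and 0.0445% of all genes were called. Within slide 2, with 1 H/A and 2 WT arrays, the same differences were 2.03, 1.06, 1.9, 1.2, 0.77 and 2.16, and 3 markers were called (Adgre1, Mpeg1 and Vsig4), where 1.99% of all genes were. The lone H/A array has no spread of its own, so these calls assume that it varies like the other groups on that slide.

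For the Del livers the slides gave different sizes. Slide 1 held a single Del array, and there Del against Flox differed by 0.1 for Adgre1, 0.14 for Vsig4, 1.19 for Cd5l and 1.28 for Mpeg1. On slide 2, with 3 Del and 2 Flox arrays, the differences were 1.3, 1.21, 1.84 and 1.32. There 7 of 9 markers were called, with Csf1r among them as lower (-0.91), where 11.1% of all genes were called. In Del against WT, slide 1 gave 0.6 for Adgre1, 0.05 for Vsig4, 0.96 for Cd5l, 1.71 for Mpeg1 and 2.7 for Marco, and slide 2 gave 1.5, 1.04, 0.86, 1.53 and 2.38 and 5 called markers, where 8.1% of all genes were called. With the slide of the label as a block, Clec4f was called in Del against WT (0.66, adjusted p = 0.0498) and against Flox (0.58, adjusted p = 0.046), Csf1r in Del against WT (-0.67, adjusted p = 0.0247), and Marco was lost in H/A against Flox (1.68, limma adjusted p = 0.0524). A block by the slide in the file names, which holds all H/A arrays on 1 slide and all Del arrays on the other, left 1 marker called in Del against WT, Mpeg1, where 4.03% of all genes were called, and 2 in H/A against Flox, Cd5l and Vsig4, where 2.52% of all genes were. The calls it ended had differences of 1.17 for Adgre1, 0.78 for Cd5l, 0.81 for Vsig4 and 1.98 for Marco in Del against WT. In H/A against Flox they were 1.41 for Adgre1, 1.03 for Clec4f, 1.31 for Mpeg1 and 2.27 for Marco.

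Whether the markers changed in step was asked by taking each marker relative to Adgre1 in the same liver. Csf1r in H/A against WT livers was lower relative to Adgre1 by a log2 difference of -2.16, Timd4 by -1.58 and Folr2 by -1.58, and for each the 4 H/A livers lay wholly below the 4 WT livers. The same held for 81.8% of all genes taken relative to Adgre1, which itself rose by 1.7, so the separation of these 3 markers says nothing particular about them. Mpeg1 (-0.14), Cd5l (-0.39), Vsig4 (-0.49), Clec4f (-0.6) and Marco (0.98) overlapped between the groups. With 4 livers against 4, a two-sided exact permutation test over 70 regroupings cannot go below p = 0.0286. Csf1r, Timd4 and Folr2 reached this floor in H/A against WT (0.0762 after adjustment over 8 markers). After adjustment a marker can pass only if most of the 8 reach the floor together. In H/A against WT, Del against WT, Del against Flox and H/A against Flox 0 of 8 passed, which says little about whether the markers changed in step. With normexp background correction, 5 of 8 passed in H/A against WT and 5 in H/A against Flox. The share of all genes that would pass there was not determined, so these counts cannot be read as particular to the markers.

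The order of the livers within a group was compared across the 6 markers that rose in H/A against WT livers. H/A replicate 3 had the highest value of all 16 arrays in 6 of 6 markers. Among WT livers, replicate 2 was the highest and replicate 1 the lowest in 6 of 6, and among Flox livers replicate 1 was the highest in 5 of 6. The Del livers had no such order, since replicates 2, 3 and 4 were each the highest in 2 markers, and replicate 1 was the lowest in 4. Because the 6 markers were chosen as higher in H/A than in WT livers, an H/A array at the top is favoured. The share of all genes with this order was not determined, so the order cannot be read as particular to the markers. In the correlation of each marker with the mean of the other 8 over the 16 arrays, Clec4f (0.928), Adgre1 (0.91), Vsig4 (0.909), Mpeg1 (0.908), Marco (0.879) and Cd5l (0.867) stood together, with Folr2 at 0.576, Timd4 at 0.19 and Csf1r at -0.694. After each genotype's mean was subtracted, the same 6 markers ranged from 0.653 (Adgre1) to 0.862 (Cd5l). Timd4 then correlated with the mean of the other 8 at 0.584, Folr2 at 0.257 and Csf1r at -0.328. These coefficients describe 16 arrays that share groups and slides.

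**Figure D3:**
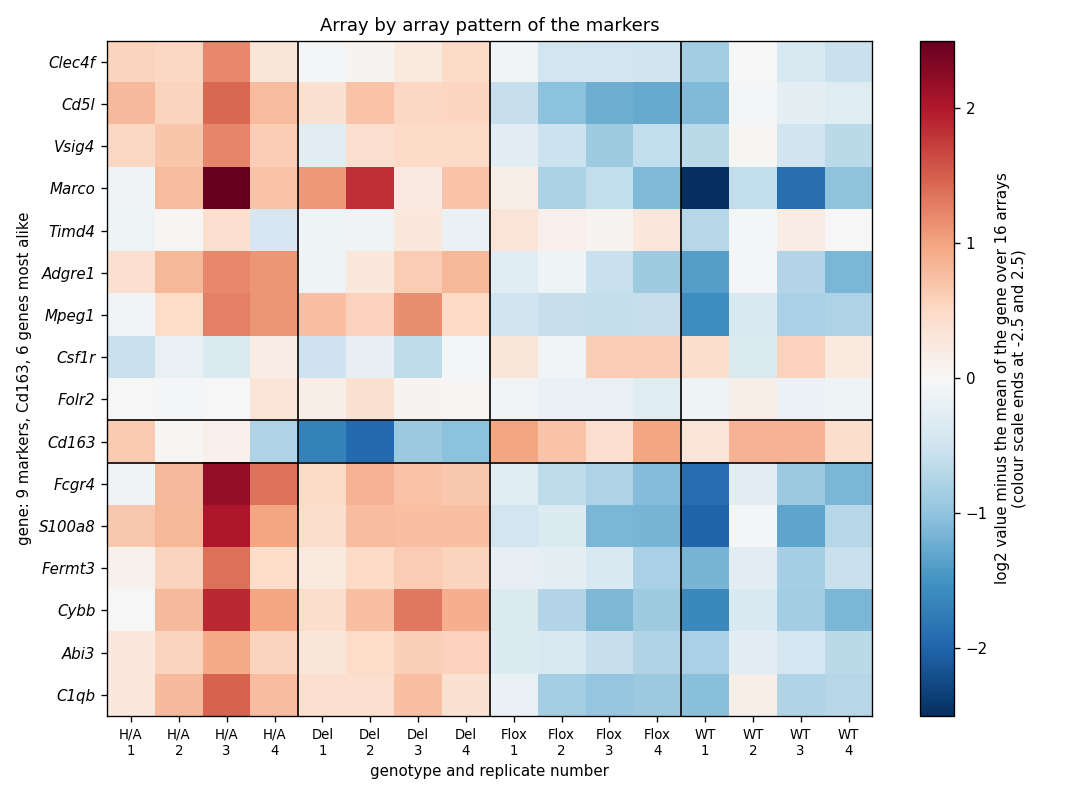
Log2 value of each gene minus its mean over 16 arrays (colour) for the 9 markers, for Cd163, which was chosen after its values were seen, and for the 6 genes most like the markers' mean (rows), in each liver (columns, by genotype and replicate). The H/A and Del columns are mostly red and the Flox and WT columns mostly blue for 6 of the markers, Csf1r shows the opposite, and Cd163 is lowest in the 4 Del columns.

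The genes most like the mean of the 9 markers over the 16 arrays were Fcgr4 (r = 0.989), an activating Fc receptor of macrophages and neutrophils, S100a8 (0.973), a calcium-binding protein of neutrophils and monocytes, Fermt3 (0.973), the integrin activator of blood cells, Cybb (0.972), the catalytic subunit of the phagocyte oxidase, Abi3 (0.962) and C1qb (0.959), a chain of complement C1q. After subtraction of the genotype means the leading genes were Fcgr4 (0.959), Cybb (0.915), Tgtp1 (0.913), an interferon-induced GTPase, C1qa (0.906), Fermt3 (0.906) and Abi3 (0.895). Fcgr4 had log2 values of 6.99, 7.89, 9.28 and 8.44 in H/A livers, 7.56, 7.95, 7.78 and 7.74 in Del livers, 6.78, 6.44, 6.31 and 6 in Flox livers, and 5.17, 6.8, 6.15 and 5.93 in WT livers. Fcgr4 was chosen for this likeness, so its values are a description.

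Among further genes of Kupffer cell identity, more were called higher than lower. Of 18 tested, 5 rose in H/A against WT livers and 1 fell, with a median log2 difference of 0.32. The 1 that fell was Cxcl13, a chemokine for B cells (-0.6). In H/A against WT livers 7.08% of all genes rose and 2.97% fell, and in Del against Flox 16.6% rose and 18.2% fell. Fcna, a ficolin that recognises microbial sugars (0.75, adjusted p = 0.00115), Pcolce2 (1.15, adjusted p = 0.00633), Clec1b, a C-type lectin shared with platelets (1.02, adjusted p = 0.00658), and Slc16a9, a carrier for carnitine and creatine (1.13, adjusted p = 0.00794), were among those that rose. In Del against Flox livers 6 rose and 2 fell (Cd163 and Cxcl13), with a median of 0.36. There Pcolce2 (1.37), Slc16a9 (0.91) and Clec1b (0.66) rose, while the difference of Fcna, 0.24, was not called (limma adjusted p = 0.112).

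Cd163, the scavenger receptor for haemoglobin bound to haptoglobin, was chosen after its values were seen. The log2 values were 8.92, 8.3, 8.39 and 7.5 in H/A livers, 6.58, 6.33, 7.35 and 7.24 in Del livers, 9.25, 8.98, 8.66 and 9.25 in Flox livers, and 8.59, 9.13, 9.13 and 8.7 in WT livers. Every Del liver was below every liver of the other 3 groups. Cd163 fell in Del against WT livers (log2 difference -2.01, 95% interval -2.61 to -1.41, adjusted p = 0.000362) and against Flox livers (-2.16, adjusted p = 0.000199). In H/A livers it differed by -0.61 from WT livers (adjusted p = 0.148) and by 1.4 from Del livers (95% interval 0.8 to 2, limma adjusted p = 0.266), and neither was called. The H/A-minus-Flox difference of -0.76 (95% interval -1.36 to -0.15) just missed the threshold (limma adjusted p = 0.0509). It was called with the slide of the label as a block (-0.8, adjusted p = 0.0489) and in 3 of 16 runs with 1 array left out. On slide 1, with 1 Del array, the Del-minus-Flox difference was -2.53 and on slide 2 it was -1.98.

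Genes shared by macrophages and other myeloid cells rose with the markers. Of 22 tested, 13 rose in H/A against WT livers and 0 fell (median 0.88), and 11 rose and 1 fell in Del against Flox livers (median 0.74), namely C1qc (-0.52), a partner chain of C1qb. The shares of all genes were 7.08% up and 2.97% down in the first comparison, and 16.6% up and 18.2% down in the second. Cd14, the coreceptor for bacterial lipopolysaccharide, rose by 2.88 and 2.35 in these comparisons, and the integrin chain Itgb2 by 2 and 2.04. Cybb rose by 1.92 and 1.63, and C1qb by 1.42 and 1.22. The WT and Flox means were 3.75 and 4.06 for Cd14 and 4.09 and 3.92 for Itgb2. These are dim values, below the median of 4.36 over all probes. The log2 of the summed level of the 22 genes was 13.4 to 14.67 in H/A, 13.59 to 13.85 in Del, 13 to 13.34 in Flox and 12.86 to 13.32 in WT livers.

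Genes of the lipid-associated macrophage state had the highest median difference among these lists. Of 9 tested, 5 rose in H/A against WT livers and 0 fell (median 1.92), and 5 rose and 2 fell in Del against Flox livers (median 2.27), with Trem2, the receptor that defines the state, at -0.71 and Fabp5, a fatty acid binding protein, at -1.17. The shares of all genes were 7.08% up and 2.97% down in the first comparison, and 16.6% up and 18.2% down in the second. The lysosomal tetraspanin Cd63 rose by 3.31 and 3.04 and the galectin Lgals3 by 2.94 and 3.3. Lipoprotein lipase, Lpl, rose by 1.92 and 2.27, and the elastase Mmp12 by 1.99 and 3.09. Mmp12 was dim in the reference livers, with means of 3.56 in WT and 3.7 in Flox. Cd63, Lgals3 and Lpl are also made by other liver cells, and the cells that gave these signals were not identified.

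Some markers of blood monocytes and neutrophils were called, and others were not. In H/A against WT livers 7.08% of all genes rose and 2.97% fell, and in Del against Flox 16.6% rose and 18.2% fell. Of 8 monocyte genes tested, 3 were higher and 0 lower at the threshold between H/A and WT livers, namely Plac8 (1.88), S100a4 (1.69) and Ly6c2 (1.46), whose near-identical neighbour Ly6c1 may contribute to its probe (median of the list 0.26). In Del against Flox livers the same list went both ways, with 3 higher and 2 lower and a median of -0.06. Treml4 was among the lower ones (-0.49, limma adjusted p = 0.00682), and its H/A-minus-WT difference of -0.23 was not called. The other monocyte markers Chil3, Itgam and F13a1 were not well above background on any array of any group. S100a4 was not well above background on any Flox array. The summed log2 level of 11 monocyte genes was 9.82 to 10.2 in H/A, 9.65 to 9.94 in Del, 9.7 to 10.04 in Flox and 9.52 to 9.78 in WT livers. Of 7 neutrophil genes tested, 3 rose in H/A against WT livers and 0 fell (S100a8 by 2.15, S100a9 by 1.58 and Ltf by 0.77), and 1 rose in Del against Flox livers, S100a8 by 1.45 (median of the list 0.11). Camp differed by 0.75 in H/A against WT and by 0.11 in Del against Flox, and neither was called. The summed level of 8 neutrophil genes was 8.75 to 9.8 in H/A, 8.64 to 8.81 in Del, 7.96 to 8.38 in Flox and 7.68 to 8.39 in WT livers. Their part in the rise of the 6 markers was not tested.

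Signals that maintain or recruit Kupffer cells, with some receptors and effectors of such signals, were the last list read beside the markers. Of 12 tested, 6 rose in H/A against WT livers and 0 fell (median 0.59), and 7 rose and 1 fell, Tgfb1 (-0.54), in Del against Flox livers (median 0.73). The shares of all genes were 7.08% up and 2.97% down in the first comparison, and 16.6% up and 18.2% down in the second. Icam1, an adhesion molecule for leukocytes, rose by 1.5 and 0.91, and Ccl2, the chemokine that draws monocytes, rose by 2 and 1.54. Ccl2 was dim in the reference livers, with means of 2.7 in WT and 3.17 in Flox. The receptor Notch2 rose by 0.9 and 0.97, and Acvrl1, a receptor for bone morphogenetic proteins 9 and 10, by 0.86 and 0.77. The cells that gave these receptor signals were not identified. None of 11 sinusoidal endothelial genes was called in H/A against WT livers (median -0.24), and Stab1 alone fell in Del against Flox livers (-0.48). The H/A-minus-WT differences were -0.46 for Oit3, -0.45 for Kdr, -0.34 for Stab1 and -0.27 for Gpr182, while 5 of the 11 genes lay above 0.

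**Figure D4:**
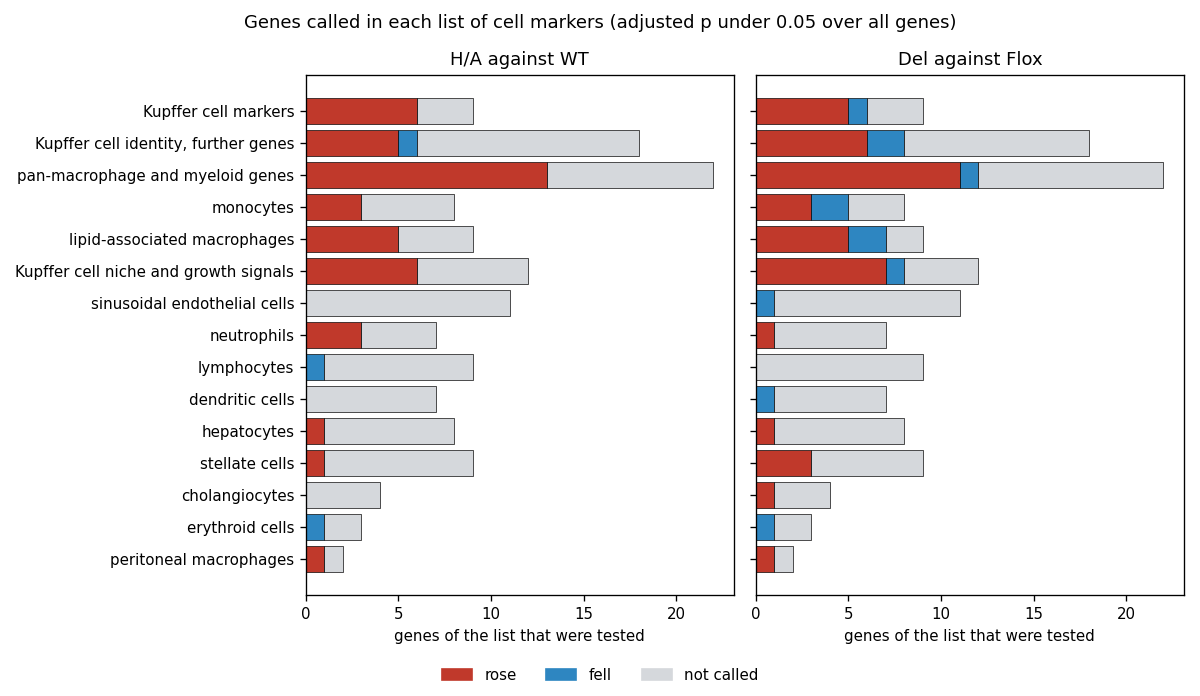
Number of genes that rose, fell or were not called (stacked bars, x axis) in each list of cell markers (y axis), in H/A against WT livers on the left and in Del against Flox livers on the right. In H/A against WT, 13 of 22 macrophage and myeloid genes and 6 of 9 Kupffer cell markers rose. There 0 of 11 sinusoidal endothelial genes were called, and over all genes 7.08% rose and 2.97% fell.

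Because 6 markers rose together, their promoters were read for the core motifs of factors that shape Kupffer cells. RefSeq promoters on GRCm38.p6, 250 bases before to 50 after the start of transcription, were found for 7 of the 9 genes, 8 promoters in all. Folr2 had 2 of them, and none was found for Csf1r or for Adgre1, 1 of the 6 markers that rose. The motifs were GAGGAA for PU.1, TGGGAA for the Notch effector RBPJ, TGCTGA for a MAF half-site, and the direct repeat of AGGTCA spaced by 4 bases for the liver X receptor, each on both strands, and no 2 matches overlapped. The promoters shown are those of 4 markers that rose in H/A livers and of Timd4, which was not called, with the matches in capitals.
Cd5l, chr3:87357631-87357930, plus strand: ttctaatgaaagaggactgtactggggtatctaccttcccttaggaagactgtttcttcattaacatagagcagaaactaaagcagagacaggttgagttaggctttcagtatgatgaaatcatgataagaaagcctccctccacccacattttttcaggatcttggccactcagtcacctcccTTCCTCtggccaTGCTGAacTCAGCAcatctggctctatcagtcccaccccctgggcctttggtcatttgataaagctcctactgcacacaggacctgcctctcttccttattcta
Vsig4, chrX:96293389-96293688, minus strand: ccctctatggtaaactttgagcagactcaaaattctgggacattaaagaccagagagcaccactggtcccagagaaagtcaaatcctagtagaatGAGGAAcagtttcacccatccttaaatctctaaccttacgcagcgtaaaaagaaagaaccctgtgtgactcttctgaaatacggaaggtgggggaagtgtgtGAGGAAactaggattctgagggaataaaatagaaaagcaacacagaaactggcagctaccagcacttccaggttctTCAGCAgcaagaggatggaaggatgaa
Marco, chr1:120504975-120505274, minus strand: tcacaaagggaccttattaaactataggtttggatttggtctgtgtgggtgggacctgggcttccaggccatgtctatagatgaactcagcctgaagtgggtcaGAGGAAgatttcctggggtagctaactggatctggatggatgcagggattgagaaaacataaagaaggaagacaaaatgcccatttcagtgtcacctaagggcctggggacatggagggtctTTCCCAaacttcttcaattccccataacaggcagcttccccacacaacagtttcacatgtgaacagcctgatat
Clec4f, chr6:83656067-83656366, minus strand: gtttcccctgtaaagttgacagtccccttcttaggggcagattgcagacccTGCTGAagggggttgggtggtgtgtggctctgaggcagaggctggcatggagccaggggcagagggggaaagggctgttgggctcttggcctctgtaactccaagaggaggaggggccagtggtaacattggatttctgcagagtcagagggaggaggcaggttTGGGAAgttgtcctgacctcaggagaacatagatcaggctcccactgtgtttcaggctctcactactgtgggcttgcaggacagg
Timd4, chr11:46810549-46810848, plus strand: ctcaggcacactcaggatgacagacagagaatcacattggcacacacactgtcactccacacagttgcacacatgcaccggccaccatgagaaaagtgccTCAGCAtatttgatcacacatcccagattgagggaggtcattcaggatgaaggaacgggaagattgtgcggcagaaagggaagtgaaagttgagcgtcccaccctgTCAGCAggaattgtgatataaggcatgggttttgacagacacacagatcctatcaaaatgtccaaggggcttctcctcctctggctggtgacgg
The PU.1 core was in 3 of the 8 promoters, in 3 of the 7 genes (Cd5l, Vsig4 and Marco), beside 28.3% of all 32851 promoters. The RBPJ core was in 2 of 8 promoters (Marco and Clec4f), beside 25.6%. The MAF half-site was in 6 of 8 promoters, in 5 genes (Cd5l, Vsig4, Clec4f, Timd4 and Folr2), beside 19.5%. In Cd5l a pair of half-sites faced each other. The liver X receptor repeat was in 0 of the 8 promoters, beside 0.0152% of all promoters. The MAF half-site occurred in markers that rose and in Timd4, and none of the 4 motifs was in the promoter of Mpeg1. Whether any of these factors acts through these matches was not tested.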

How the data were processed

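Total RNA of 16 livers was labelled with Cy3 and hybridised to 16 subarrays on 2 slides. The authors' deposited values are on a log2 scale and share 1 distribution, with the median 4.36 in all 16 columns, as quantile normalisation leaves them. The submitters' processing notes name Agilent Feature Extraction 11 and Partek. The scanner files hold spot intensity values, processed and background subtracted per the file headers. Of 62976 spots on an array, 1439 were controls. The table lists 60037 probes, and 36258 were given a symbol through RefSeq transcript identifiers (GRCm38.p6). A probe was kept if 4 or more of the 16 arrays, of any genotype, had it well above background, and the probe with the highest mean stood for a gene. With limma 3.58.1 in R 4.3.3, 1 model of 4 group means was fitted to the 16 arrays, and p-values were adjusted over 31481 genes by Benjamini-Hochberg. "Rose" and "fell" mean an adjusted p under 0.05. Intervals are 95% intervals, unadjusted. The fit was tested on simulated data.

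The members and all marker lists were chosen with earlier results of these data known. The 9 members were named, with the 6 genes most like their mean, before and after subtracting genotype means. Of each further list, the 4 genes with the smallest p in H/A against WT were to be named. Not all 4 were named for lymphocytes, dendritic cells, hepatocytes, stellate cells, cholangiocytes and erythroid cells. Cd163, and list genes named because they fell, were chosen after their values were seen. The values of 1 list gene are not reported here. The lists covered further Kupffer cell identity genes, macrophage and myeloid genes, monocytes, lipid-associated macrophages, Kupffer cell niche signals, sinusoidal endothelial cells, neutrophils, lymphocytes, dendritic cells, hepatocytes, stellate cells, cholangiocytes, erythroid cells and peritoneal macrophages. Replicates are numbered in the order of the samples. The number of arrays limits the precision. Alternatives were scanner files as listed or paired by label, other scaling, background correction, filters, slide blocks, array weights, groups fitted alone, moderation with trend, the mean of all probes of a gene, and each array left out.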

Additional observations from a re-analysis of the deposited data

Results flagged for a closer look

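In 36 groups of 4 livers, 6 values lay further from the other 3 of their group than Dixon's criterion for outliers allows; chance alone marks about 1 group in 20. Among Flox livers, replicate 1 was high for Clec4f, at 10.04, and for Mpeg1, at 8.01. Del replicate 1 was low for Vsig4, at 8.61, and Del replicate 3 was high for Timd4, at 5.36. For Folr2, H/A replicate 4 was high at 5.87 and WT replicate 2 was high at 5.69.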

How the results depend on the processing

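Numbers of called markers are given for H/A against WT, Del against WT, Del against Flox and H/A against Flox, which were 6, 5, 6 and 6. They were 0 in all 4 with the scanner files as listed. With the file-name slide as a block they were 1 in Del against WT and 2 in H/A against Flox. When each array was left out in turn they ranged over 6 to 7, 4 to 7, 3 to 8 and 5 to 7, with 3 in Del against Flox without Del replicate 3, Flox replicate 3 or Flox replicate 4. The other alternatives stayed within 1.5 times. H/A against Del and Flox against WT gave 0 under every alternative run. Markers that differed from Adgre1 numbered 5 in H/A against WT and 5 in H/A against Flox with normexp. They numbered 0 to 0 in all leave-one-out runs, and the matching share of all genes was not determined. In these runs too, adjustment lets no marker pass unless most of the 8 reach the smallest possible p of the exact permutation test together. Without scaling between arrays the median of all genes was 0.37 in H/A against WT, 0.31 in H/A against Flox and 0.4 in H/A against Del, against -0.09, -0.14 and -0.01 with scaling. The share of all genes called moved over 4.61% to 25.5% in H/A against WT, 6.96% to 22.8% in Del against WT, 16.2% to 39% in Del against Flox and 18.7% to 36.9% in H/A against Flox as arrays were left out, beside 10.1%, 13.2%, 34.8% and 33.2% with all. Other settings gave, in the same order, 42.8%, 20.3%, 34.6% and 49% with array weights, 30.3%, 7.12%, 13.9% and 33.4% without scaling, 5.22%, 7.22%, 19.3% and 18.7% without the filter, 6.7%, 4.03%, 30% and 2.52% with the file-name block, 5.8%, 9.04%, 26% and 35.4% with the 2 groups alone, and at most 0.0159% with listed files.

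Signs turned for differences near 0 that were not called. In H/A against WT, Timd4 was -0.03 without H/A replicate 3 and -0.07 without WT replicate 1, Csf1r 0.02 without scaling, and Folr2 -0.06 with listed files. In Del against WT, Timd4 was -0.1 with the mean of all probes and -0.07 without WT replicate 1, and Folr2 -0.0001 with listed files. In Del against Flox, Timd4 was 0.01 with listed files, and in H/A against Flox 0.18 with listed files and 0.22 without scaling. In H/A against Del, Timd4 was 0.0041 with label-paired files, 0.17 with listed files, 0.41 without scaling, 0.01 and 0.03 with the slide of label and file name as blocks, 0.06 with array weights, 0.16 with all probes, and 0.03, 0.13 and 0.09 without H/A replicates 1 and 4 and Del replicate 3. Marco was -0.03 with array weights, -0.5 without H/A replicate 3 and -0.06 without Del replicate 3. Csf1r was -0.07 with listed files, -0.03 with the file-name block and -0.02 without H/A replicate 4. Mpeg1 was 0.36 without scaling, 0.09 with normexp, 0.02 and 0.03 with the slide blocks, 0.03 with array weights, and 0.2, 0.02 and 0.08 without H/A replicates 1 and 2 and Del replicate 3. Folr2 was 0.33 without scaling. In Flox against WT, Clec4f was -0.06 without WT replicate 1 and -0.03 without Flox replicate 1, Vsig4 0.04 with listed files and 0.03 without WT replicate 2, and Csf1r -0.05 without WT replicate 2. As arrays were left out, these differences ranged over -0.07 to 0.25 for Timd4 in H/A against WT, -0.07 to 0.23 in Del against WT and -0.15 to 0.13 in H/A against Del. In H/A against Del, Marco ranged over -0.5 to 0.6, Mpeg1 over -0.25 to 0.2 and Csf1r over -0.02 to 0.22, and in Flox against WT, Clec4f over -0.06 to 0.23, Vsig4 over -0.24 to 0.03 and Csf1r over -0.05 to 0.29. The cause was not tested. No paired analysis was possible because replicate numbers were given in the order of the samples and pair no samples. Timd4, Csf1r and Folr2, with processed signals up to 47.2, 74.6 and 95.6, were the dimmest at their highest array.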

Other observations

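Some genes of the other liver cell types were called in H/A against WT livers, where 7.08% of all genes rose and 2.97% fell. Of 9 stellate cell genes 1 rose, the pericyte regulator Rgs5 (1.13, limma adjusted p = 0.003), and of 8 hepatocyte genes 1 rose, Cps1 of the urea cycle (0.68, adjusted p = 0.0316). Of 9 lymphocyte genes 1 fell, Cd2 (-0.48, adjusted p = 0.0405), while 0 of 7 dendritic cell genes (median -0.33) and 0 of 4 cholangiocyte genes were called. Of 3 erythroid genes 1 fell, Alas2, the first enzyme of haem synthesis in red cells (-2.09, adjusted p = 0.0268). The 2 genes tested of a peritoneal macrophage list were Prg4 (0.32, not called) and Lyz1, which rose by 1.33 and is a near copy of Lyz2, so its probe may read both; Alox15, Icam2 and Serpinb2 were not well above background on any array.

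In Del against Flox livers 3 of 9 stellate cell genes rose, Rgs5 (1.14), Dcn (0.51) and Col1a1 (1.45, limma adjusted p = 0.0168), and the bile duct gene Sox9 rose by 1.09 (adjusted p = 0.0169). Of 7 dendritic cell genes 1 fell, Zbtb46 (-0.43), and of 3 erythroid genes 1 fell, Klf1 (-0.55). In this comparison 16.6% of all genes rose and 18.2% fell.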
